A study of Mus musculus with 51 samples.

Results

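Femur RNA of mice that lack Tet1 was compared with femur RNA of mice that lack Tet2, each in cells of the limb mesenchyme lineage. The comparison rests on 6 libraries of the 51 samples in the series, which were 3 Tet1 cKO and 3 Tet2 cKO libraries chosen by their labels. They belong to an experiment of 12 libraries that also holds 3 Ctrl and 3 Tet1/2 cKO libraries, given here as a description. All mice were C57BL/6 and 11 weeks old, ate a standard rodent diet and carried the Prrx1-Cre transgene. Tet1 cKO mice were homozygous for a Tet1 allele with loxP sites around exon 4, Tet2 cKO mice for a Tet2 allele with loxP sites around exon 3, and Tet1/2 cKO mice for both, while Ctrl mice had wild type alleles and the same Cre. Prrx1-Cre acts in the early limb bud mesenchyme, so osteoblasts, osteocytes, chondrocytes and stromal cells of the femur descend from cells with active Cre. Osteoclasts, blood cells, endothelium and muscle fibers keep both genes. The bones were flushed of marrow and freed of periosteum before RNA extraction.

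TET1, TET2 and TET3 are dioxygenases that oxidize 5-methylcytosine in DNA to 5-hydroxymethylcytosine (5hmC), using iron and 2-oxoglutarate, and vitamin C keeps them active. TET1 has a CXXC domain that binds unmethylated CpG-rich DNA. TET2 has lost this domain and is brought to DNA by partner proteins. The comparison of the single knockouts asks whether loss of one enzyme leaves a different transcriptome in bone than loss of the other.

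Values are normalized counts, that is, reads per gene divided by one size factor per library. The reads counted on genes numbered 30159060, 33502427 and 36184596 in Tet1 cKO and 35070880, 36901321 and 37072342 in Tet2 cKO, so the depths overlapped. Differences are given as log2 values of Tet1 cKO minus Tet2 cKO on the log2(normalized count + 1) scale, with the standard error (SE) of the limma fit. Nothing in the labels states that mice of one number were littermates or were processed together. The methods call the libraries biological triplicates.

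The amount of skeletal muscle RNA differed widely among the 6 libraries, and not by genotype. The summed level of 20 skeletal muscle genes was 1730252, 35520 and 13496 in the Tet1 cKO libraries and 2289668, 1048982 and 6211 in the Tet2 cKO libraries, so the highest library held 369 times the lowest. Tet1 cKO replicate 1 and Tet2 cKO replicates 1 and 2 were the muscle-rich libraries. In bulk RNA, fewer cells of a type and less RNA per cell cannot be told apart. The defining markers of bone were present in all 6 libraries. Bglap, which encodes osteocalcin, was between 22215 and 56594 in Tet1 cKO and between 5883 and 36556 in Tet2 cKO. Marrow RNA was also present, with S100a9 of neutrophils between 117520 and 541643 in the 6 libraries. No marker of the osteoblast, osteoclast, adipocyte, neutrophil or muscle lists was at 0 in all 6. Tet2 cKO replicate 2 had the lowest osteoblast level of the 6, with a summed level of 386826 for 22 genes, against 1473513 to 4557182 in Tet1 cKO and 1711002 and 2783804 in the other two Tet2 cKO libraries.

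**Figure D1:**
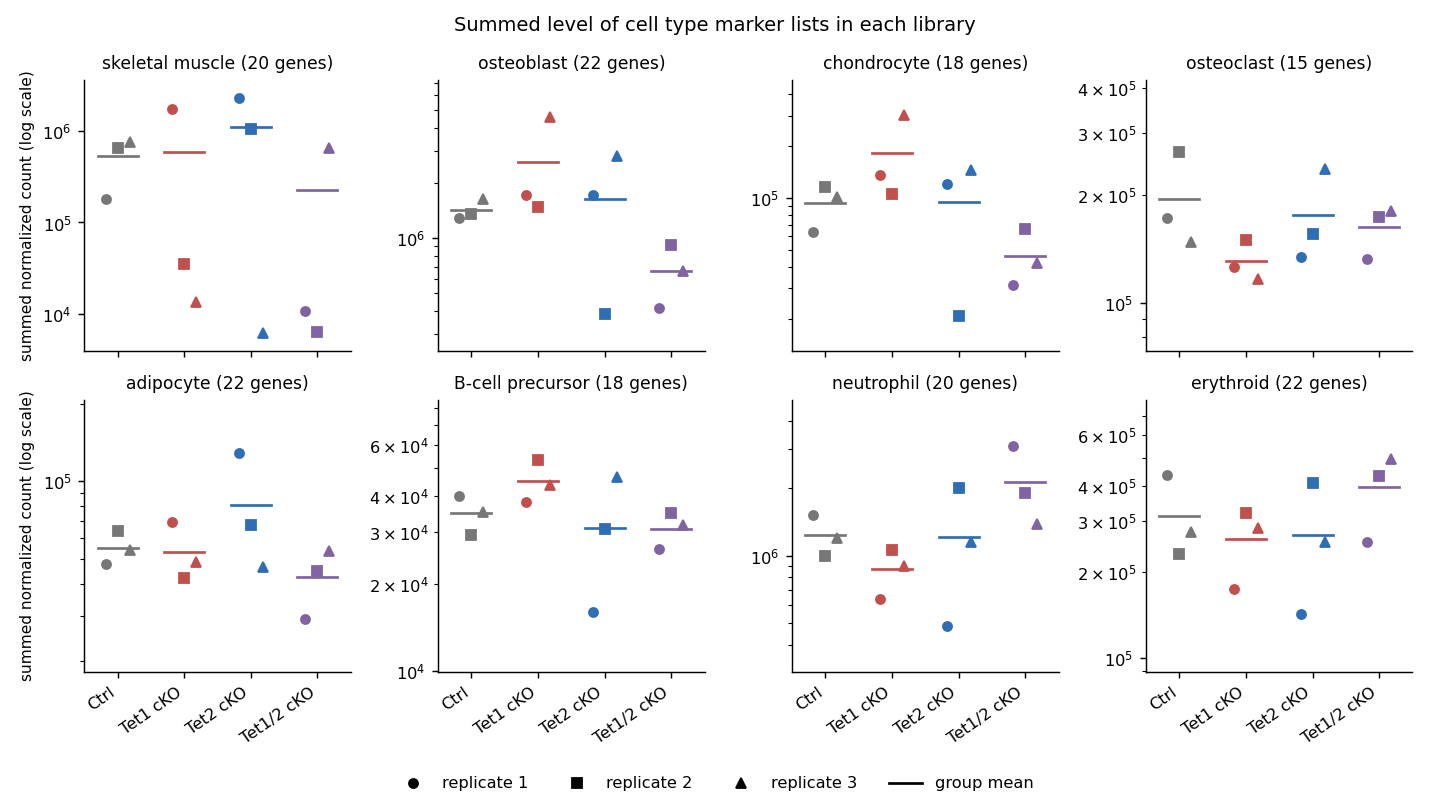
Summed normalized count (log axis) of 8 marker lists in each of the 12 libraries, with 1 point per library, the replicate number as the symbol and the group mean as a line. Skeletal muscle spans 6211 to 2289668 within the 6 single knockout libraries, and the Tet1 cKO and Tet2 cKO points overlap in every panel.

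Neither targeted gene passed the threshold in these counts. Between the single knockouts only Tet2 lay lower, without overlap, in its own knockout, and there it overlapped Ctrl. Tet1 was at 630, 532 and 773 in Tet1 cKO and at 691, 349 and 538 in Tet2 cKO. The libraries labelled Tet1 cKO did not have a lower Tet1 count, and the groups overlapped. The log2 difference was 0.33 (SE 0.25, 95% interval -0.23 to 0.89, limma adjusted p = 0.998). Tet2 was at 2433, 2584 and 2524 in Tet1 cKO and at 2245, 2210 and 1834 in Tet2 cKO. Here the groups did not overlap, as for 5.18% of all genes in that direction. The Tet2 cKO libraries were lower, by 0.27 on the log2 scale (SE 0.17, 95% interval of Tet1 cKO minus Tet2 cKO -0.11 to 0.65, adjusted p = 0.998). Tet3, which was not targeted, was at 3548, 4144 and 4523 in Tet1 cKO and 2966, 3936 and 3777 in Tet2 cKO, with a log2 difference of 0.20 (SE 0.17). In Ctrl, Tet1 was between 374 and 435 and Tet2 between 2236 and 2512. Tet1 thus lay higher in all 3 Tet1 cKO libraries than in any Ctrl library, and Tet2 overlapped between Tet2 cKO and Ctrl. In Tet1/2 cKO, Tet1 was at 485, 415 and 442 and Tet2 at 2970, 1851 and 2351, and both overlapped Ctrl.

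These counts cover the whole gene. By RefSeq on GRCm38.p6, the build of the files (mm10), exon 4 of Tet1 is chr10:62838176-62840378 on the minus strand, 2203 bases of coding sequence in a model of 13 exons. Exon 3 of Tet2 is chr3:133485512-133488717, also on the minus strand, with 3160 coding bases among its 3206 bases in a model of 11 exons. The exon numbers follow the RefSeq models, and the numbering behind the alleles is not given in the sources used here. Deletion of one exon need not lower the count of the remaining exons, and cells without Cre still carry the intact gene. The state of the deleted exons was not measured in these files, so the genotypes rest on the labels.

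**Figure D2:**
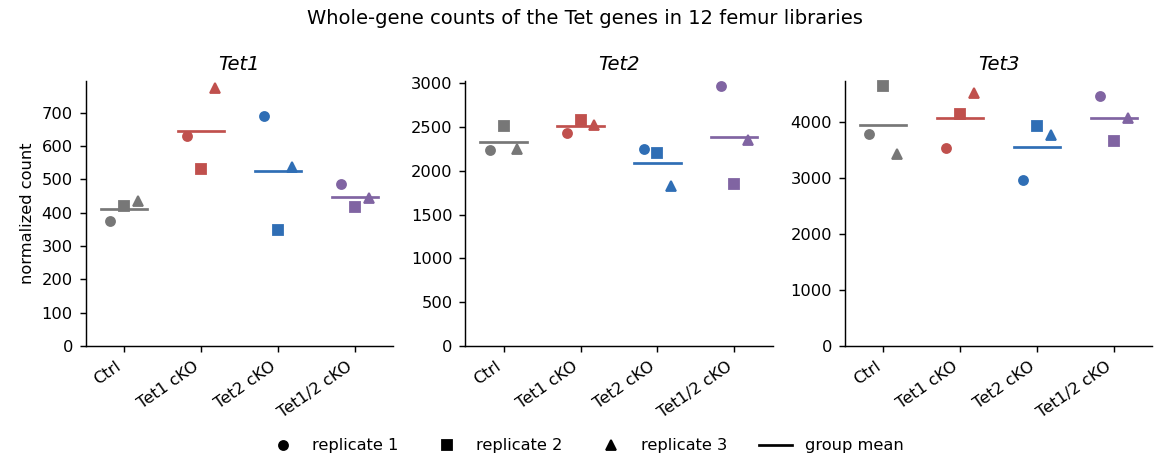
Normalized count of Tet1, Tet2 and Tet3 (linear axes from 0) in the 12 libraries, with 1 point per library and the group mean as a line. Tet1 lies between 532 and 773 in Tet1 cKO and between 349 and 691 in Tet2 cKO, and Tet2 between 2433 and 2584 in Tet1 cKO and between 1834 and 2245 in Tet2 cKO.

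No gene passed the threshold between the single knockouts. Of 16780 genes tested with limma, 0 (0.0%) had an adjusted p under 0.05, and the lowest adjusted p was 0.76. At an unadjusted p under 0.05 there were 421 genes (2.51%) with a higher value in Tet1 cKO and 248 (1.48%) with a higher value in Tet2 cKO. These were 669 genes in all (3.99%). The groups did not overlap for 1354 genes (8.07%), of which 869 (5.18% of all genes) were higher in Tet1 cKO and 485 (2.89%) higher in Tet2 cKO. With the same reads as whole counts, edgeR also called 0 genes (0.0%), with 602 at an unadjusted p under 0.05, while DESeq2 called 15 of 18585 (0.0807%), 6 higher in Tet1 cKO and 9 higher in Tet2 cKO. The median log2 difference over all genes tested was 0.00. For the 14004 genes with a mean of at least 50 in the 6 libraries, the median half-width of the 95% interval was 0.63 on the log2 scale. This width is for 1 gene at a time, before adjustment over all genes, so it is not the limit of detection at the threshold. None of the 1632 genes with a log2 difference of at least 1 in size passed. With 3 libraries a group, the missed threshold does not show that the knockouts act alike.

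The genes described next are from the 8 in each direction with the lowest unadjusted p among those without overlap and with a mean of at least 50 in the higher group. None of these 16 passed the threshold with limma. DESeq2 called 11 of them. Among the genes with higher values in Tet1 cKO, Slfn8 (chr11:83002125-83020810, minus strand) encodes a Schlafen protein of lymphoid and myeloid cells. Its normalized count was 999, 571 and 835 in Tet1 cKO and 119, 260 and 325 in Tet2 cKO. Ctrl, between 908 and 1038, lay above every Tet2 cKO library and overlapped Tet1 cKO. Tet1/2 cKO, between 312 and 632, was below Ctrl and overlapped both single knockouts. The log2 difference was 1.85 (SE 0.38, 95% interval 1.02 to 2.69, unadjusted p = 0.000478, adjusted p = 0.89 with limma and 0.0097 with DESeq2). The neighboring family member Slfn9 was at 493, 1058 and 622 in Tet1 cKO and at 455, 742 and 879 in Tet2 cKO, with overlap.

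Npm2 (chr14:70647296-70661802), a histone chaperone best known from oocytes, was at 45.0, 76.6 and 71.3 in Tet1 cKO and at 18.5, 8.82 and 18.3 in Tet2 cKO. Ctrl lay between the 2 groups at 31.7 to 42.5, overlapping neither. These are 182 reads in the 3 Tet1 cKO libraries and 44 in the 3 Tet2 cKO libraries, with a log2 difference of 2.04 (SE 0.45, adjusted p = 0.998).

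Vcan (chr13:89655309-89743027, minus strand), which encodes the large matrix proteoglycan versican, was at 4631, 2996 and 8608 in Tet1 cKO and at 1335, 1307 and 1913 in Tet2 cKO. All 3 Tet1 cKO libraries lay above Ctrl, at 1276 to 2189, and above Tet1/2 cKO, at 1001 to 2653. Vcan differed by 1.72 on the log2 scale (SE 0.42, adjusted p = 0.998). Gm17388, a predicted gene for which no RefSeq entry was matched, was at 604, 492 and 425 in Tet1 cKO and at 240, 252 and 258 in Tet2 cKO. Its Ctrl values of 248 to 288 lay with Tet2 cKO and its Tet1/2 cKO values of 331 to 372 between the 2 single knockouts. The log2 difference was 1.00 (SE 0.20, adjusted p = 0.89).

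Another 3 genes of this direction were small nucleolar RNAs (snoRNAs). Box C/D snoRNAs guide the 2′-O-methylation or processing of ribosomal RNA, are cut from introns of host genes and carry a C box near the 5′ end and a D box near the 3′ end. The RefSeq sequences (GRCm38.p6) of the 3 copies in introns of Hspa8 on the plus strand, at chr9:40803583-40803669, chr9:40803995-40804081 and chr9:40804748-40804838, and of Snord19 in Gnl3 on the minus strand, at chr14:31016219-31016272, are shown because the first 2 are nearly the same and their reads can be confused. Capitals mark the first match to the C box letters TGATGA and the last match to the D box letters CTGA on the transcribed strand.
Snord14c: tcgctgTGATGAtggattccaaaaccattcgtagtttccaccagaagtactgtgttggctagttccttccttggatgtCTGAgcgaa
Snord14d: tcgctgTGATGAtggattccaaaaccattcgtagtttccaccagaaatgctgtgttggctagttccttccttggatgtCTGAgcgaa
Snord14e: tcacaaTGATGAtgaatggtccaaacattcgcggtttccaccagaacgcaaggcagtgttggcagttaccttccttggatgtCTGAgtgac
Snord19: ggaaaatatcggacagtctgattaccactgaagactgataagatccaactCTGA
TGATGA was found in 46 of the 93 annotated Snord genes (49.5%) and CTGA in all 93, and Snord19 holds no TGATGA in this entry. Snord14c and Snord14d share 85 of 87 bases in the same order (97.7%), and Snord14e shares 75 of 91 with each.

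The snoRNA counts that follow are reads on these intervals. They do not tell a cut snoRNA from unspliced host RNA, and how the libraries capture such short RNAs was not tested. Snord14c was at 108, 85.5 and 117 in Tet1 cKO and 11.1, 21.6 and 49.5 in Tet2 cKO. Snord14d, named here for its likeness after its values were seen, was at 126, 120 and 142 in Tet1 cKO and 38.3, 38.2 and 65.9 in Tet2 cKO. Snord14e was at 426, 261 and 310 in Tet1 cKO and 60.6, 95.1 and 155 in Tet2 cKO. All 3 Hspa8 snoRNAs were thus without overlap and higher in Tet1 cKO, with log2 differences of 2.112 (SE 0.53), 1.47 (SE 0.38) and 1.75 (SE 0.45) and adjusted p = 0.998 each with limma. In Ctrl, Snord14c reached 39.4 at most, below every Tet1 cKO library. The host gene Hspa8, a constitutive heat shock chaperone, was at 33152, 32608 and 24235 in Tet1 cKO and 20606, 24548 and 33880 in Tet2 cKO, with overlap and a log2 difference of 0.20 (SE 0.24).

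Snord19 was at 53.2, 46.2 and 56.2 in Tet1 cKO and at 11.1, 12.7 and 13.7 in Tet2 cKO, from 142 and 37 reads in all. Its log2 difference was 1.97 (SE 0.45, adjusted p = 0.998), while its host Gnl3 overlapped, with a log2 difference of 0.18 (SE 0.16). Among the 76 Snord and Snora genes tested, 56 had a higher value in Tet1 cKO, 16 were higher without overlap and 1 was lower without overlap, against 5.18% and 2.89% of all genes. Their median log2 difference was 0.41, and 8 had an unadjusted p under 0.05 with a higher value in Tet1 cKO and 1 with a higher value in Tet2 cKO, against 2.51% and 1.48% of all genes. The snoRNAs were looked at as a group after the values of these members were seen.

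Among the genes with higher values in Tet2 cKO, 2 were low in both groups labelled as Tet1 deletions, Tet1 cKO and Tet1/2 cKO. Gpr137b-ps (chr13:12614065-12650395, minus strand) is a transcribed pseudogene. It was at 173, 94.3 and 106 in Tet1 cKO and at 760, 545 and 894 in Tet2 cKO. Ctrl, at 506 to 1436, overlapped Tet2 cKO, and Tet1/2 cKO, at 77.7 to 189, overlapped Tet1 cKO. The log2 difference was -2.57 (SE 0.45, 95% interval -3.56 to -1.57, unadjusted p = 0.000136, adjusted p = 0.76 with limma and 0.000398 with DESeq2). Its value is uncertain, because reads may be shared with the near-identical parent gene Gpr137b. Gpr137b itself was at 2183, 2025 and 1607 in Tet1 cKO and 1875, 938 and 2276 in Tet2 cKO, with overlap.

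Calml3 (chr13:3802893-3804318, minus strand), a calmodulin-like gene of epithelia, had the same order of groups. It was at 10.9, 11.8 and 4.02 in Tet1 cKO and at 81.6, 106 and 108 in Tet2 cKO. Ctrl was at 57.1 to 252 and Tet1/2 cKO at 5.76 to 15.2. The 3 Tet1 cKO libraries held 24 reads and the 3 Tet2 cKO libraries 292, and the log2 difference was -3.43 (SE 0.64, adjusted p = 0.89 with limma and 0.000817 with DESeq2).

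For Scgb3a1 and Mettl7a3 the Tet1 cKO libraries were below every library of the other groups. Scgb3a1 (chr11:49663595-49665118), a small secreted secretoglobin, was at 9.55, 6.88 and 7.03 in Tet1 cKO and at 44.5, 64.7 and 59.5 in Tet2 cKO. Ctrl at 24.3 to 36.6 lay between them without overlap, and Tet1/2 cKO at 25.9 to 47.2 lay above Tet1 cKO. Scgb3a1 had the lowest p of all genes, with a log2 difference of -2.69 (SE 0.45, 95% interval -3.69 to -1.70, unadjusted p = 8.83e-05, adjusted p = 0.76 with limma and 0.000398 with DESeq2), from 21 and 167 reads.

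Mettl7a3 (chr15:100334806-100348386) encodes a methyltransferase-like protein and had no read in the 3 Tet1 cKO libraries. It was at 171, 27.4 and 8.24 in Tet2 cKO, at 34.9 to 42.0 in Ctrl and at 11.4 to 66.2 in Tet1/2 cKO. With a floor of 3 reads over the Tet1 cKO group, the mean of the Tet2 cKO libraries was at least 61.6-fold higher, and without Tet2 cKO replicate 1 at least 16.0-fold. The limma fit gave an unadjusted p of 0.000279 (adjusted p = 0.89). Its neighbor Mettl7a2 (chr15:100353200-100361819), named after its values were seen, was at 0, 0 and 2.01 in Tet1 cKO and at 34.6, 32.3 and 15.6 in Tet2 cKO, with 27.5 to 35.2 in Ctrl. Both are close copies of Mettl7a1, and their counts are uncertain where reads are shared. Mettl7a1, on the same stretch, was at 1639, 1785 and 1793 in Tet1 cKO and at 2069, 1716 and 1388 in Tet2 cKO, with overlap. Krt90 (chr15:101552356-101562950), a keratin gene also named after its values were seen, had no read in Tet1 cKO and was at 56.9, 19.6 and 9.16 in Tet2 cKO, while all 3 Ctrl libraries held reads, up to 29.8.

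For Sox13 and Rnase2a, in contrast, the Tet2 cKO libraries stood apart from every other group. Sox13 (chr1:133382300-133424459, minus strand) encodes a SoxD transcription factor. It was at 476, 513 and 492 in Tet1 cKO and at 1580, 944 and 1176 in Tet2 cKO, against 360 to 603 in Ctrl and 363 to 710 in Tet1/2 cKO. On the log2 scale Sox13 differed by -1.29 (SE 0.29, 95% interval -1.92 to -0.65, adjusted p = 0.998 with limma and 0.0318 with DESeq2). Rnase2a (chr14:51255261-51256112, minus strand), a ribonuclease of the eosinophil-associated family, was at 0, 6.88 and 6.02 in Tet1 cKO and at 54.4, 108 and 49.5 in Tet2 cKO, from 13 and 208 reads. It belongs to a multigene family and its counts are uncertain where copies share reads. Its relative Ear2 overlapped between the groups, and Ctrl held 4.64 to 16.3 of Rnase2a.

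Nefh (chr11:4938754-4948064, minus strand), a neurofilament subunit, was at 69.6, 106 and 61.3 in Tet1 cKO and 168, 306 and 256 in Tet2 cKO. Syn2 (chr6:115134902-115282626), a synaptic vesicle protein, was at 9.55, 39.3 and 10.0 in Tet1 cKO and at 112, 91.1 and 54.0 in Tet2 cKO. The log2 differences were -1.61 (SE 0.40) and -2.31 (SE 0.59), both with adjusted p = 0.998.

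**Figure D3:**
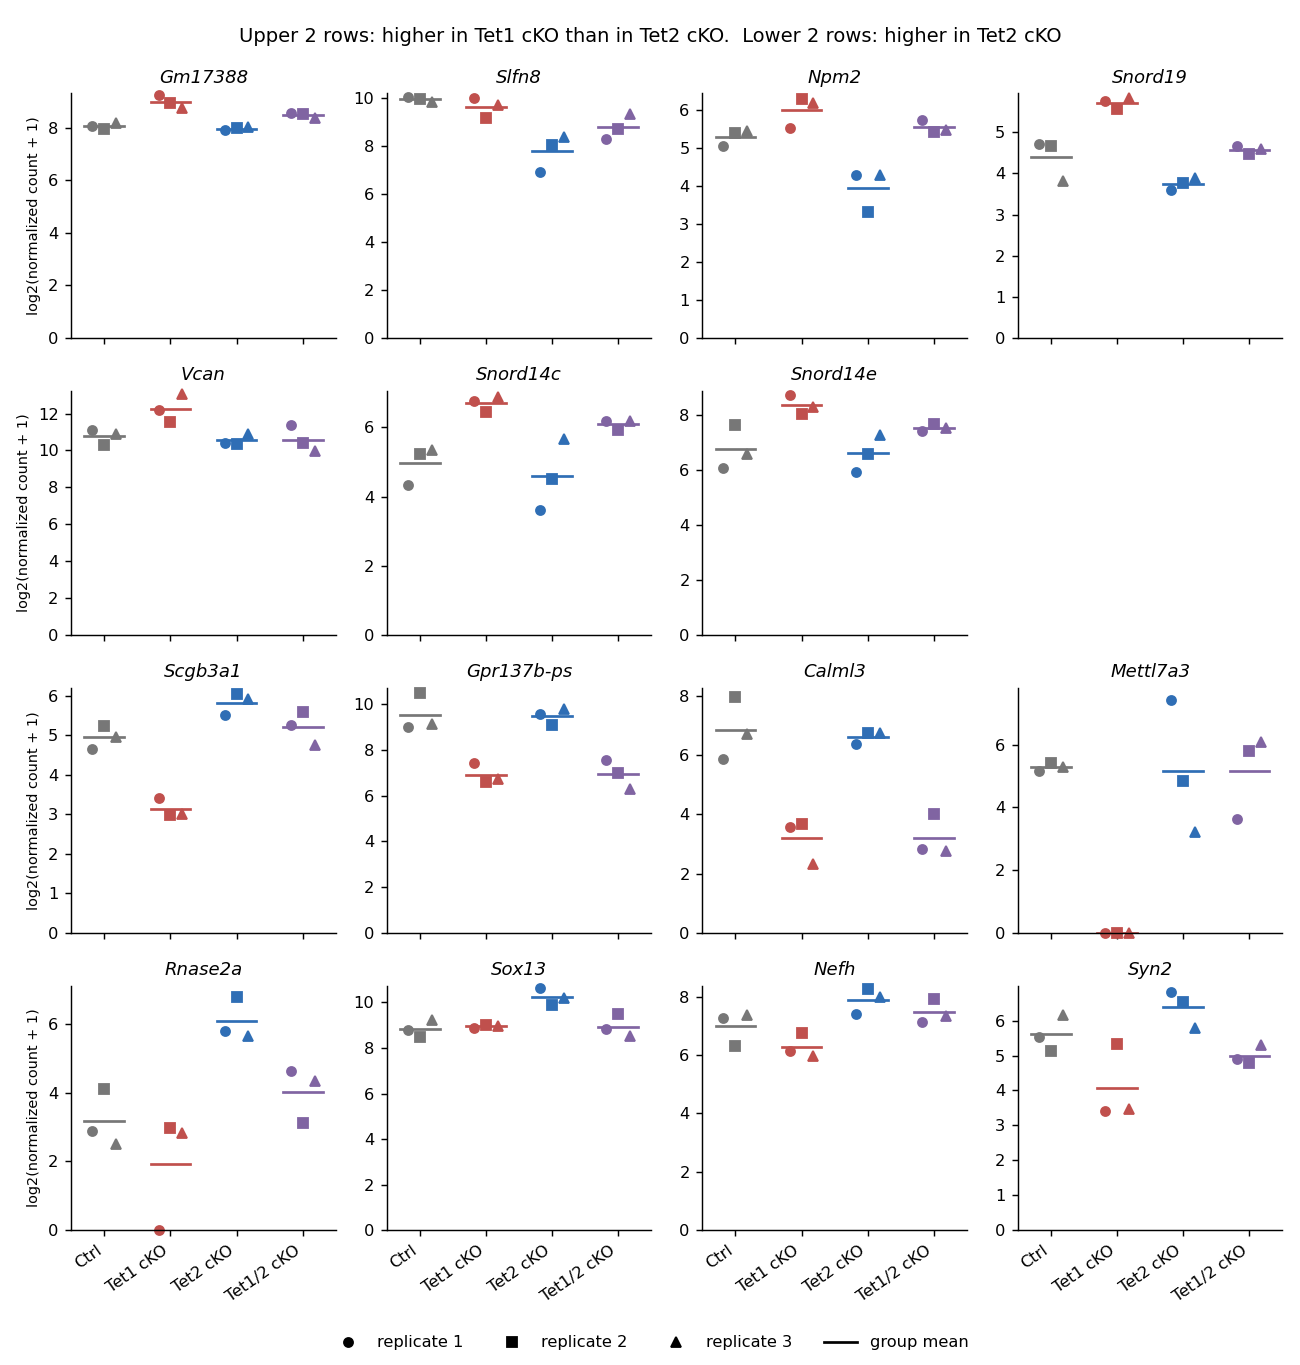
Expression on the log2(normalized count + 1) scale (axes from 0) of 15 of the 16 genes with the lowest p, 7 higher in Tet1 cKO in the upper rows and 8 higher in Tet2 cKO in the lower rows, in the 12 libraries, with 1 point per library and the group mean as a line. The Tet1 cKO and Tet2 cKO points do not overlap in any panel, by the choice of the genes, and the Tet1/2 cKO points of Gpr137b-ps and Calml3 lie with Tet1 cKO.

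The gene lists describe how groups of genes with a known role lay between the 2 knockouts. No member of any of the 35 lists passed the threshold. The medians depended on single libraries, and 25 of the 35 had the other sign when 1 library was left out. The osteoblast list, with 22 genes of matrix production and mineralization, had a median log2 difference of 0.76, against 0.00 for all genes, and 20 of 22 members had a higher value in Tet1 cKO. None had an unadjusted p under 0.05, and none was without overlap. Col1a1, the main collagen chain of bone, was at 511293, 479934 and 1674541 in Tet1 cKO and at 520460, 114889 and 874182 in Tet2 cKO. In both genotypes replicate 3 was the high library, and the low value of Tet2 cKO replicate 2 set much of the difference of 0.99 (SE 0.85, 95% interval -0.87 to 2.86). Col1a2, the other chain of type I collagen, differed by 1.00 (SE 0.92). Without the 3 muscle-rich libraries, the median of the osteoblast list was -0.02. Here and below, that setting leaves Tet2 cKO replicate 3 alone against Tet1 cKO replicates 2 and 3, and so holds no spread of Tet2 cKO.

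The Bone60 genes, a list of bone-selective genes that the study drew from public RNA-seq data of human and wild type mouse tissues, had a median of 0.12, with 34 of 59 members higher in Tet1 cKO. The median had the other sign under 5 of 19 alternatives, at -0.05 with DESeq2, -0.04 with edgeR, -0.11 without Tet1 cKO replicate 3, -0.35 without Tet2 cKO replicate 2 and -0.26 without the 3 muscle-rich libraries. Of the 59 genes, 2 had a higher and 1 a lower value in Tet1 cKO at an unadjusted p under 0.05, against 2.51% and 1.48% of all genes. Prss35, a serine protease, was at 8230, 4406 and 13928 in Tet1 cKO and 4915, 889 and 4964 in Tet2 cKO, with overlap (log2 difference 1.51, SE 0.63). Sparc, the abundant collagen-binding protein osteonectin, was at 183573, 140370 and 373500 in Tet1 cKO and 157792, 35225 and 275975 in Tet2 cKO, with its lowest value again in Tet2 cKO replicate 2. The 14 osteocyte genes had a median of 0.12 and none at an unadjusted p under 0.05. Over the 19 alternatives this median lay between -0.76 and 0.89. It had the other sign with DESeq2, with edgeR, without Tet1 cKO replicate 3 and without Tet2 cKO replicate 2. Dmp1, a matrix protein of osteocytes that regulates phosphate, was at 4928, 8571 and 12520 in Tet1 cKO and at 19986, 4962 and 14637 in Tet2 cKO, with overlap and a log2 difference of -0.49 (SE 0.51). Fam20c, the kinase that phosphorylates secreted bone matrix proteins, had the lowest p of that list and overlapped, at 705, 714 and 1504 against 2481, 668 and 1870.

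Of 44 genes of Wnt and BMP signaling, 27 had a higher and 17 a lower value in Tet1 cKO, with a median of 0.13 (-0.13 without Tet1 cKO replicate 1 and -0.34 without Tet2 cKO replicate 2) and no member at an unadjusted p under 0.05. Wif1, a secreted Wnt inhibitor, was at 5493, 4111 and 11235 in Tet1 cKO and 3906, 1661 and 5995 in Tet2 cKO, a log2 difference of 0.90 (SE 0.46). Smad6, an intracellular inhibitor of BMP signaling, differed by 1.05 (SE 0.51) and Lrp4, a receptor for the Wnt inhibitor sclerostin, by -0.30 (SE 0.42), both with overlap. Among 21 genes of collagen hydroxylation and crosslinking the median was 0.43. Loxl2, a lysyl oxidase that crosslinks collagen, was at 13271, 5854 and 15473 in Tet1 cKO and 8275, 1247 and 3896 in Tet2 cKO, with overlap and a log2 difference of 1.63 (SE 0.62, unadjusted p = 0.0226, adjusted p = 0.998). Serpinh1, the collagen chaperone HSP47, differed by 0.84 (SE 0.52) and P4hb, the shared subunit of the collagen prolyl hydroxylases, by 0.12 (SE 0.22). The median of this list was -0.06 without the 3 muscle-rich libraries and -0.07 without Tet2 cKO replicate 2.

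The chondrocyte list was mixed. Its median was -0.997, with 12 of 17 members lower in Tet1 cKO, but its most abundant members had higher values in Tet1 cKO. Col11a1, a chain of type XI collagen, was at 80312, 52112 and 160574 in Tet1 cKO and 53030, 7675 and 64834 in Tet2 cKO, a log2 difference of 1.56 (SE 0.72). Col2a1, the main collagen of cartilage, did not overlap, with 19982, 15433 and 34995 in Tet1 cKO and 13228, 1637 and 12277 in Tet2 cKO (log2 difference 1.78, SE 0.79, adjusted p = 0.998). Ucma, a small secreted protein of growth plate chondrocytes, had no read in the 3 Tet1 cKO or the 3 Tet1/2 cKO libraries, and was at 9.89, 7.84 and 29.3 in Tet2 cKO and at 12.7 to 27.8 in Ctrl. With a floor of 3 reads over the Tet1 cKO group, its mean in Tet2 cKO was at least 14.0-fold higher, or at least 7.94-fold without Tet2 cKO replicate 3, from 48 reads (unadjusted p = 0.000434, adjusted p = 0.89). Without the 3 muscle-rich libraries (Tet2 cKO replicate 3 alone in its group) the median of the chondrocyte list was -2.65. Without Tet2 cKO replicate 3 it was 0.12.

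The osteoclast and adipocyte lists had lower values in Tet1 cKO. Of 15 osteoclast genes, 13 were lower in Tet1 cKO, 3 of them without overlap, against 2.89% of all genes, and the median was -0.48. Osteoclasts come from the blood lineage, in which Cre is not active. Mmp9, a gelatinase of osteoclasts and neutrophils, was at 14677, 18091 and 18113 in Tet1 cKO and 21526, 29738 and 38354 in Tet2 cKO, without overlap (log2 difference -0.78, SE 0.33, unadjusted p = 0.037, adjusted p = 0.998). Siglec15, a receptor of fusing osteoclasts, was at 16.4, 9.83 and 11.0 in Tet1 cKO and 56.9, 20.6 and 126 in Tet2 cKO, with a log2 difference of -2.04 (SE 0.80, adjusted p = 0.998). Ctsk, the collagen-degrading protease of osteoclasts, overlapped at 32561, 19115 and 15942 against 37051, 16390 and 61552. The highest Siglec15 and Ctsk values of the 6 libraries were those of Tet2 cKO replicate 3, without which the median of the list was -0.05.

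Of 22 adipocyte genes, 21 had a lower value in Tet1 cKO, and the median was -0.77. An unadjusted p under 0.05 with a lower value in Tet1 cKO was found for 5 of 22, against 1.48% of all genes, and 2 of 22 were without overlap, against 2.89%. Pnpla2, the first lipase of triglyceride breakdown, was at 1726, 1737 and 1241 in Tet1 cKO and at 4785, 3889 and 1850 in Tet2 cKO (log2 difference -1.07, SE 0.30, unadjusted p = 0.00403, adjusted p = 0.998). Lipe, the hormone-sensitive lipase, was at 390, 556 and 461 in Tet1 cKO and 1054, 794 and 530 in Tet2 cKO. In both genes the Tet2 cKO values had the order of the muscle level, with the highest in replicate 1 and the lowest in replicate 3. The Tet1 cKO values did not have that order in either gene, and Lipe was lowest in the muscle-rich replicate 1. The cause was not tested. Plin1, the coat protein of lipid droplets, was at 12.3, 25.5 and 59.2 in Tet1 cKO and 721, 52.9 and 85.2 in Tet2 cKO, and Adipoq, the adipokine adiponectin, at 669, 1657 and 1941 and at 3124, 1768 and 2592. Without the 3 muscle-rich libraries, the median of the list was -0.32, and the log2 difference of Pnpla2 was -0.33. Tet2 cKO replicate 3 was then alone in its group.

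The skeletal muscle list had the lowest median of the 35 lists, -1.39, with all 20 members lower in Tet1 cKO and none at an unadjusted p under 0.05. Eno3, the muscle enolase, had the lowest p of the list, with a log2 difference of -1.35 (SE 1.86, unadjusted p = 0.482). Myh4, a fast myosin heavy chain, was at 360030, 5013 and 2637 in Tet1 cKO and 370385, 181736 and 929 in Tet2 cKO. The 24 genes of mitochondrial electron transport were also all lower in Tet1 cKO, with a median of -0.42, and none at an unadjusted p under 0.05. Atp5b, a subunit of ATP synthase, was at 50855, 23936 and 20605 in Tet1 cKO and 64904, 47120 and 28217 in Tet2 cKO, with its 3 highest values in the 3 muscle-rich libraries. All 14 endothelial genes were lower in Tet1 cKO too, with a median of -0.38, which was 0.01 without Tet2 cKO replicate 1. Flt4, a receptor of lymphatic and sinusoidal endothelium, was at 514, 1223 and 773 in Tet1 cKO and 1731, 699 and 1954 in Tet2 cKO, with overlap. Without the 3 muscle-rich libraries, with Tet2 cKO replicate 3 alone in its group, the muscle median was 1.92.

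**Figure D4:**
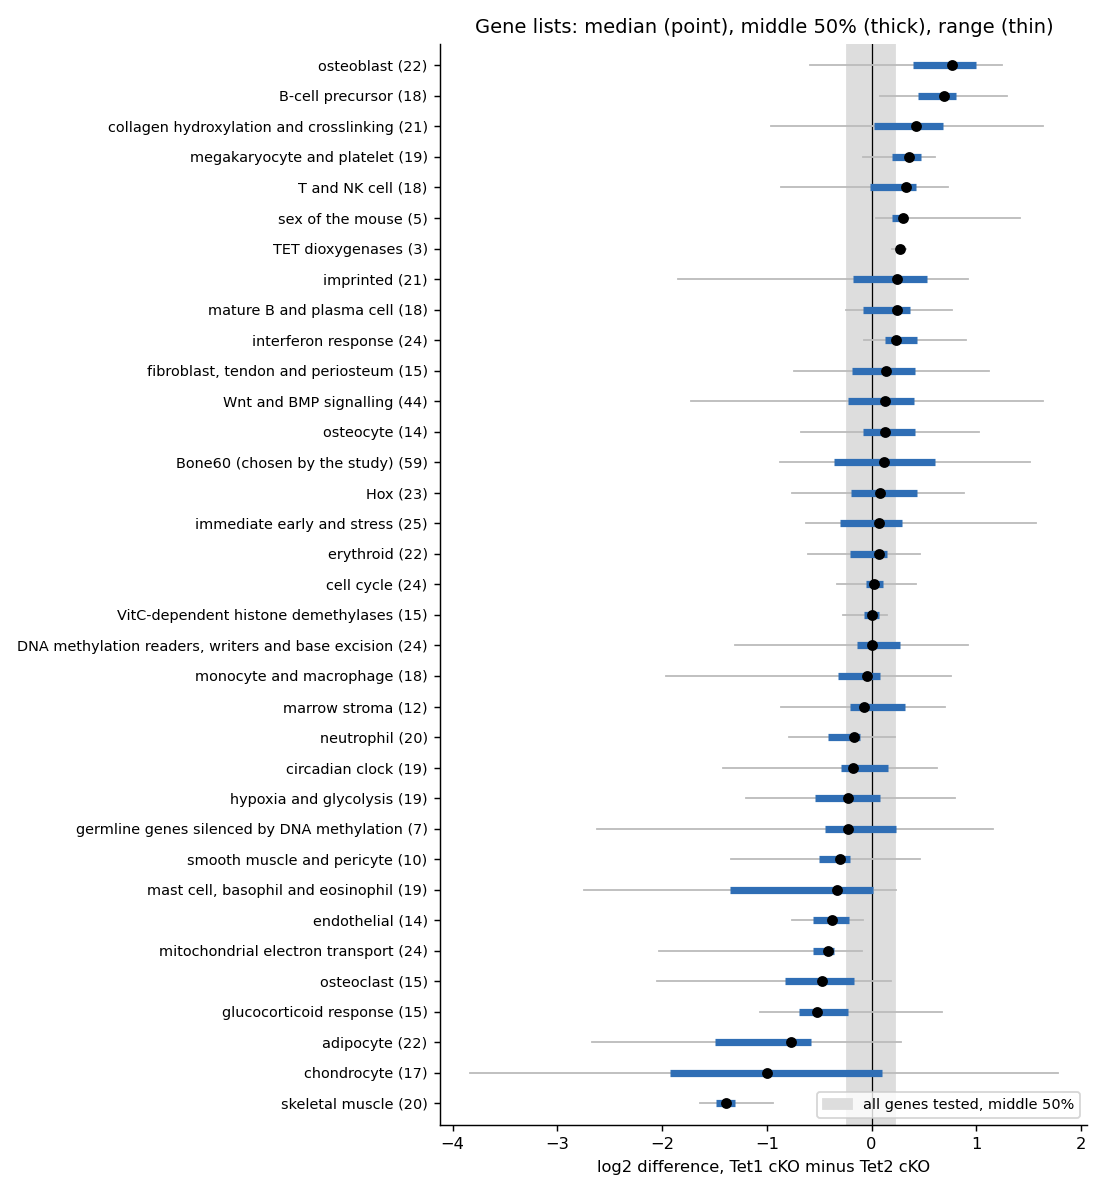
Log2 difference (Tet1 cKO minus Tet2 cKO) of the 35 gene lists, with the number of members tested in brackets, the median as a point, the middle 50% as a thick and the range as a thin line. The grey band is the middle 50% of all 16780 genes, and the medians run from -1.39 for skeletal muscle to 0.76 for osteoblast genes.

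Among the blood lineages, the B-cell precursor list was higher in Tet1 cKO in all 18 members, with a median of 0.70. An unadjusted p under 0.05 was found for 5 of 18, against 2.51% of all genes, and 3 of 18 were without overlap, against 5.18%. Rag2, a subunit of the recombinase that rearranges antibody genes, was at 516, 563 and 723 in Tet1 cKO and at 141, 220 and 454 in Tet2 cKO (log2 difference 1.30, SE 0.36, unadjusted p = 0.00398, adjusted p = 0.998). Il7r, the receptor that pre-B cells need to grow, was at 2014, 1947 and 1862 in Tet1 cKO and 665, 1398 and 1374 in Tet2 cKO. Pax5, the factor that commits cells to the B lineage, was at 1025, 1539 and 1235 and at 408, 698 and 820. The low Tet2 cKO library was replicate 1 in each case, the one with the most muscle RNA. The summed list level there was 15913, against 30777 and 46509 in the other Tet2 cKO libraries. Tet1 cKO replicate 1, also muscle-rich, held 38046, against 53290 and 43605 in the other Tet1 cKO libraries. It also had the highest Il7r value of the single knockout libraries. Without the 3 muscle-rich libraries, with Tet2 cKO replicate 3 alone in its group, the median was -0.10. The median kept its sign under 18 of 19 alternatives, the muscle level as a covariate among them. These alternatives draw on the same libraries and are not independent of each other, and the cause was not tested.

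The other marrow lists were closer to 0, with medians of -0.17 for neutrophil, -0.04 for monocyte and macrophage, 0.24 for mature B and plasma cell, 0.32 for T and NK cell, 0.07 for erythroid and 0.36 for megakaryocyte and platelet genes. Thbs1, a glycoprotein of platelet granules, did not overlap, at 32800, 32123 and 32572 in Tet1 cKO and 22940, 19076 and 28725 in Tet2 cKO (log2 difference 0.48, SE 0.20, unadjusted p = 0.0372, adjusted p = 0.998). The mast cell, basophil and eosinophil list had a median of -0.33. Prg2, the major basic protein of eosinophils, spanned 843 to 7335 in Tet1 cKO and 3642 to 19307 in Tet2 cKO. Of 24 interferon response genes, 23 had a higher value in Tet1 cKO and the median was 0.23, or -0.02 without Tet1 cKO replicate 2. Mx1, an antiviral GTPase, was at 457, 1087 and 701 in Tet1 cKO and 256, 492 and 441 in Tet2 cKO, with overlap (log2 difference 0.88, SE 0.34, adjusted p = 0.998). Of 15 glucocorticoid response genes, 12 had a lower value in Tet1 cKO and the median was -0.52, or 0.01 without the 3 muscle-rich libraries. Mt1, a metallothionein that binds zinc, was lower without overlap, at 741, 1130 and 1141 in Tet1 cKO and 1375, 2144 and 1926 in Tet2 cKO (log2 difference -0.86, SE 0.24, unadjusted p = 0.0047, adjusted p = 0.998).

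Lists close to the known biochemistry of the TET enzymes had small medians. The 24 genes of DNA methylation and base excision had a median of 0.01, with 13 higher and 11 lower in Tet1 cKO. Ogt, the glycosyltransferase that binds TET proteins, did not overlap, at 23082, 21556 and 20302 in Tet1 cKO and 17907, 18324 and 16092 in Tet2 cKO (log2 difference 0.31, SE 0.17, adjusted p = 0.998). Tet1/2 cKO lay with Tet1 cKO at 20505 to 23154, and Ctrl at 15715 to 20180 overlapped Tet2 cKO. Cxxc5, a CXXC protein that can bind TET2, did not overlap either, at 1055, 1165 and 1061 in Tet1 cKO and 886, 525 and 806 in Tet2 cKO (log2 difference 0.60, SE 0.25, unadjusted p = 0.0367, adjusted p = 0.998). Dnmt1, the maintenance methyltransferase, overlapped with a log2 difference of -0.22 (SE 0.39). The 15 vitamin C dependent histone demethylases had a median of 0.01 and a range of -0.27 to 0.15, none at an unadjusted p under 0.05. Kdm2a, an H3K36 demethylase, was at 7237, 6898 and 6641 in Tet1 cKO and 6165, 6185 and 7413 in Tet2 cKO, with a 95% interval of the difference of -0.22 to 0.38.

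The 3 TET genes as a list had a median of 0.27, and the 5 genes that mark the sex of the mouse 0.30. That list joins Xist with genes of the Y chromosome, so its median is no measure of sex. Ddx3y of the Y chromosome was between 2891 and 5452 in the single knockout libraries, and Xist was at most 177. The 21 imprinted genes tested had a median of 0.25, the 23 Hox genes 0.08, and the 7 tested of 20 germline genes silenced by DNA methylation -0.22, none with a member at an unadjusted p under 0.05. Peg10, a paternally expressed gene, was at 364, 307 and 859 in Tet1 cKO and 316, 158 and 284 in Tet2 cKO, a log2 difference of 0.92 (SE 0.42). Dpep3, a dipeptidase of the testis, was at 0, 11.8 and 10.0 in Tet1 cKO and 50.7, 26.5 and 22.0 in Tet2 cKO, without overlap (log2 difference -2.62, SE 1.29). Hoxb2, a homeobox factor, was at 198, 131 and 293 in Tet1 cKO and 124, 76.4 and 125 in Tet2 cKO, also without overlap (log2 difference 0.89, SE 0.45). The remaining medians were 0.14 for fibroblast, tendon and periosteum, -0.07 for marrow stroma, -0.30 for smooth muscle and pericyte, 0.03 for cell cycle, -0.17 for circadian clock, 0.08 for immediate early and stress, and -0.22 for hypoxia and glycolysis genes. Nr4a2, an orphan nuclear receptor of the immediate early list, was at 881, 396 and 1046 in Tet1 cKO and 336, 97.0 and 420 in Tet2 cKO, with overlap (log2 difference 1.57, SE 0.54, adjusted p = 0.998).

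The neighborhoods of the deleted loci were looked at because a floxed allele carries flanking DNA of its own. Within 5 Mb of Tet1 on chromosome 10, 69 other genes were tested. Of these, 1 had an unadjusted p under 0.05 (1.45%, against 3.99% of all genes), and the groups did not overlap for 2 higher and 4 lower in Tet1 cKO, against 5.18% and 2.89% of all genes. Within 5 Mb of Tet2 on chromosome 3, 5 of 52 genes had an unadjusted p under 0.05 (9.62%), 3 with a higher and 2 with a lower value in Tet1 cKO, and 4 were higher and 1 was lower without overlap. They were Adh1 and Bdh2, which were lower, and Dapp1, Mcub and Sgms2, which were higher, named after their values were seen. None passed the threshold with limma.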

How the data were processed

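Per the labels and the study's methods, RNA of flushed, minced femurs was made into TruSeq v2 libraries and sequenced as paired ends of 50 bp. The submitters' processing notes name FastQC (0.72), Trim Galore (0.4.3.1), STAR (2.6.0b-1) with mm10, featureCounts (1.6.3) and DESeq2 (2.11.40.2). The annotation and strand setting are not given in the sources used here. The deposited signal values, in a table of 25938 genes and 12 libraries, are gene counts that the authors divided by DESeq2 size factors. Whole reads were recovered for 100% of values (tolerance 0.001), giving 28597536 to 49788434 reads a library.

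Genes with a value of at least 10 in at least 3 of 12 libraries were tested on log2(value + 1) with limma 3.58.1 in R 4.3.3, with a variance trend and all 4 groups in the fit, for the contrast of Tet1 cKO minus Tet2 cKO (two-sided, Benjamini-Hochberg threshold 0.05). A fold on this scale understates the change of low genes. edgeR 4.0.16 (quasi-likelihood) and DESeq2 1.42.0 were run on the recovered reads as alternatives, and the fits were tested on simulated data. Floors cover counting error only.

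Deviations of same-numbered Tet1 cKO and Tet2 cKO libraries from their group means correlated at 0.529, 0.148 and 0.516, which met the rule for pairing by number. Tet1 cKO replicate 2 correlated more with Tet2 cKO replicate 3 (0.341) than with its own number, and no label states a shared litter or day. The other alternatives were TMM and upper quartile scaling, no filter, a filter of 50, pseudocounts of 0.5 and 5, the 6 libraries alone, no variance trend and each library left out. Added after seeing the data were the summed muscle level as a covariate and the 3 muscle-rich libraries left out. Leaving those out kept Tet1 cKO replicates 2 and 3 and, of Tet2 cKO, replicate 3 alone.

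Genes named were the 3 Tet genes and, as none passed the threshold, the 8 per direction with the lowest p, no overlap and a mean of at least 50 in the higher group, except that 1 of these is not reported here. Of each gene list, the 2 most abundant members and the 1 with the lowest p were candidates for description, and other members were named after their values were seen. The members and the 35 lists (671 symbols, of which 9 were not matched) were chosen with earlier results of these data known. RefSeq (GRCm38.p6) supplied coordinates and sequences for 16568 of the genes tested, by symbol.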

Additional observations from a re-analysis of the deposited data

How the results depend on the processing

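Under 17 of 19 alternatives 0 genes passed the threshold, including each library left out in turn (0 to 0), the fit with replicate number as a block (0, with 589 at an unadjusted p under 0.05), and both muscle alternatives. The block changed no call. DESeq2 called 15 genes, 6 higher in Tet1 cKO and 9 higher in Tet2 cKO, 11 of them among the 16 genes with the lowest p. limma without a variance trend called 2, both (2) higher in Tet2 cKO, which were Scgb3a1 (adjusted p = 0.0258) and Ucma. The lowest adjusted p was 0.0659 without Tet1 cKO replicate 2 and 0.0937 without Tet2 cKO replicate 3. Genes at an unadjusted p under 0.05 numbered 330 with the 6 libraries alone and 1156 without Tet2 cKO replicate 2. The log2 difference of Slfn8 lay between 1.08 and 2.15 and that of Gpr137b-ps between -3.14 and -2.39, with their direction fixed by how they were chosen. Medians of 28 of 35 lists had the other sign under at least 1 alternative. With the muscle level as a covariate, the medians were 0.67 for osteoblast, 0.56 for B-cell precursor, -0.66 for adipocyte and -0.43 for osteoclast genes, and with the 3 muscle-rich libraries left out -0.02, -0.10, -0.32 and -1.41. The values without the muscle-rich libraries rest on Tet2 cKO replicate 3 alone for that group. The cause was not tested.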

Other observations

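The 4 genes that DESeq2 called outside the 16 with the lowest p were Krt90, Mettl7a2, Serpina1a and Smim40, named after their values were seen. Smim40, a small membrane protein gene (chr17:33893206-33906680), was the reverse of Mettl7a3, with no read in the 3 Tet2 cKO libraries and normalized counts of 5.46, 38.3 and 22.1 in Tet1 cKO. Its Tet1 cKO mean was at least 21.0-fold higher than a floor of 3 reads over the Tet2 cKO group, from 65 reads, and Ctrl held 8.13 to 16.9 (limma adjusted p = 0.89, DESeq2 adjusted p = 0.011). The DESeq2 call of Serpina1a, a liver protease inhibitor, rested on Tet2 cKO replicate 3 alone, which held all 160 reads of the 6 libraries. Of the snoRNA hosts, Gnl3 also carries Snord69, which was at 47.8, 13.8 and 43.2 in Tet1 cKO and 48.2, 48.0 and 25.6 in Tet2 cKO, with overlap, while Snord19 of the same host did not overlap.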
